A study of Mus musculus with 8 samples.

Results

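The genes followed here were 10 transcription regulators that set or maintain the identity of B cells: Pax5, Ebf1, Spi1, Spib, Pou2f2, Pou2af1, Bach2, Bcl11a, Lef1 and Sox4. They were taken by their symbols from the 22298 genes of the mRNA table, and all 10 had 1 row each. RNA came from wild type female C57BL/6 mice aged 8 to 10 weeks, whose bone marrow was sorted by surface markers. Pro-B cells carried B220 and CD43 but no IgM, pre-B cells B220 alone, immature B cells B220 with IgM, and mature B cells IgM with high B220 (B220hi). No treatment, allele or transgene separated the groups. The cells of 3 mice were pooled for each stage, and 1 rRNA-depleted, strand-specific library and 1 small RNA library were made from each pool. There was thus no replicate of any stage, no p-value is given, and every interval below covers counting error only.

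A B cell is made in steps, each under the control of a small set of DNA-binding proteins. Spi1 (PU.1), an ETS factor, acts in early progenitors of blood cells, and its relative Spib acts mainly in B cells and plasmacytoid dendritic cells. Ebf1 opens the B-cell programme, and Pax5 then holds cells in it, switching on B-cell genes and silencing genes of other lineages. Pou2f2 (Oct-2) binds the octamer of immunoglobulin promoters with the coactivator Pou2af1 (OBF-1), Bach2 and Bcl11a are repressors needed in progenitors and again in mature B cells, and Lef1 and Sox4 are HMG-box factors of dividing progenitors.

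The level of a gene is given here as CPM, its estimated count per 1000000 counts of the mRNA table in the same library. The mRNA table held 867920 counts in pro-B, 240231 in pre-B, 223495 in immature and 849350 in mature cells. The pre-B and immature libraries therefore stood apart from the other pair, and the mRNA table took 6.48% of the counts of the mRNA and lncRNA tables together in each of them, against 23.7% in pro-B and 23.5% in mature B cells. The lncRNA table held 2795519, 3469757, 3227162 and 2765507 counts from pro-B to mature cells, so the gap lay in the mRNA table and not in the tables together. Of the 4 comparisons below, immature against pre-B and mature against pro-B were made between libraries of like mRNA totals, whereas pre-B against pro-B and mature against immature crossed this gap. A count of 3 was worth 3.46, 12.5, 13.4 and 3.53 CPM from pro-B to mature B cells, so low levels were seen less well in the middle stages. Of the whole counts, 63.3% to 73.9% per library were even, as when both mates of a read pair are counted, and so intervals computed from counts are too narrow. Where an interval from read pairs (counts divided by 2) gives another reading, it is named.

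The labels were checked against marker genes. All 6 markers of B cells had counts in every library, but their levels were not steady. In pre-B against pro-B cells 1 of the 6 was at least 2-fold higher in CPM (Cd79b) and 2 were lower (Ptprc and Ms4a1), beside 14.8% and 29.2% of all genes tested. Ptprc had 290, 39.1, 69.8 and 676 CPM from pro-B to mature cells, with 9.4 counts in pre-B cells. Ms4a1 had 104, 41.6, 1016 and 792 CPM, with 10 counts in pre-B cells. The summed level of 6 pro-B markers, Dntt and Kit among them, was 2321 CPM in pro-B cells and 44.7 to 179 CPM in the other libraries. The 6 markers of mature follicular B cells, such as Fcer2a and Ighd, summed to 4857 CPM in mature cells and to between 396 and 944 CPM elsewhere. Fcer2a and Cxcr5 had no count outside the mature library. Among markers of other cells, the 7 NK genes summed to 303 CPM in pro-B cells and to at most 11.8 CPM in the others, the 7 T-cell genes to 158 CPM against at most 45.8 CPM, and the 8 genes of plasmacytoid dendritic cells to 2790 CPM against 674 to 1102 CPM. Irf8, also listed below as a partner factor of early B cells, had 902, 246, 591 and 631 CPM of the plasmacytoid dendritic sum from pro-B to mature. Siglech, another gene of that list, had 121, 0, 17.9 and 0 CPM. The T-cell receptor genes Cd3d, Cd3e and Cd3g had 0 to 2 counts in any library. The 8 myeloid genes summed to between 843 and 1120 CPM in all 4 libraries, with Csf1r and Cd14 at 0 counts throughout, the 6 plasma cell genes to between 482 and 670 CPM, and the 6 erythroid genes to between 223 and 429 CPM.

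The 10 factors took 5359 CPM together in pro-B, 4762 CPM in pre-B, 3870 CPM in immature and 4867 CPM in mature cells. In FPKM, the sum was 307, 71.4, 93.9 and 297 in that order, so the size of the sum depended on the scale. A change was called at a difference of at least 2-fold in CPM, among genes with at least 10 counts in either library. In bulk RNA, fewer cells expressing a gene and less of its RNA per cell cannot be told apart.

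**Figure D1:**
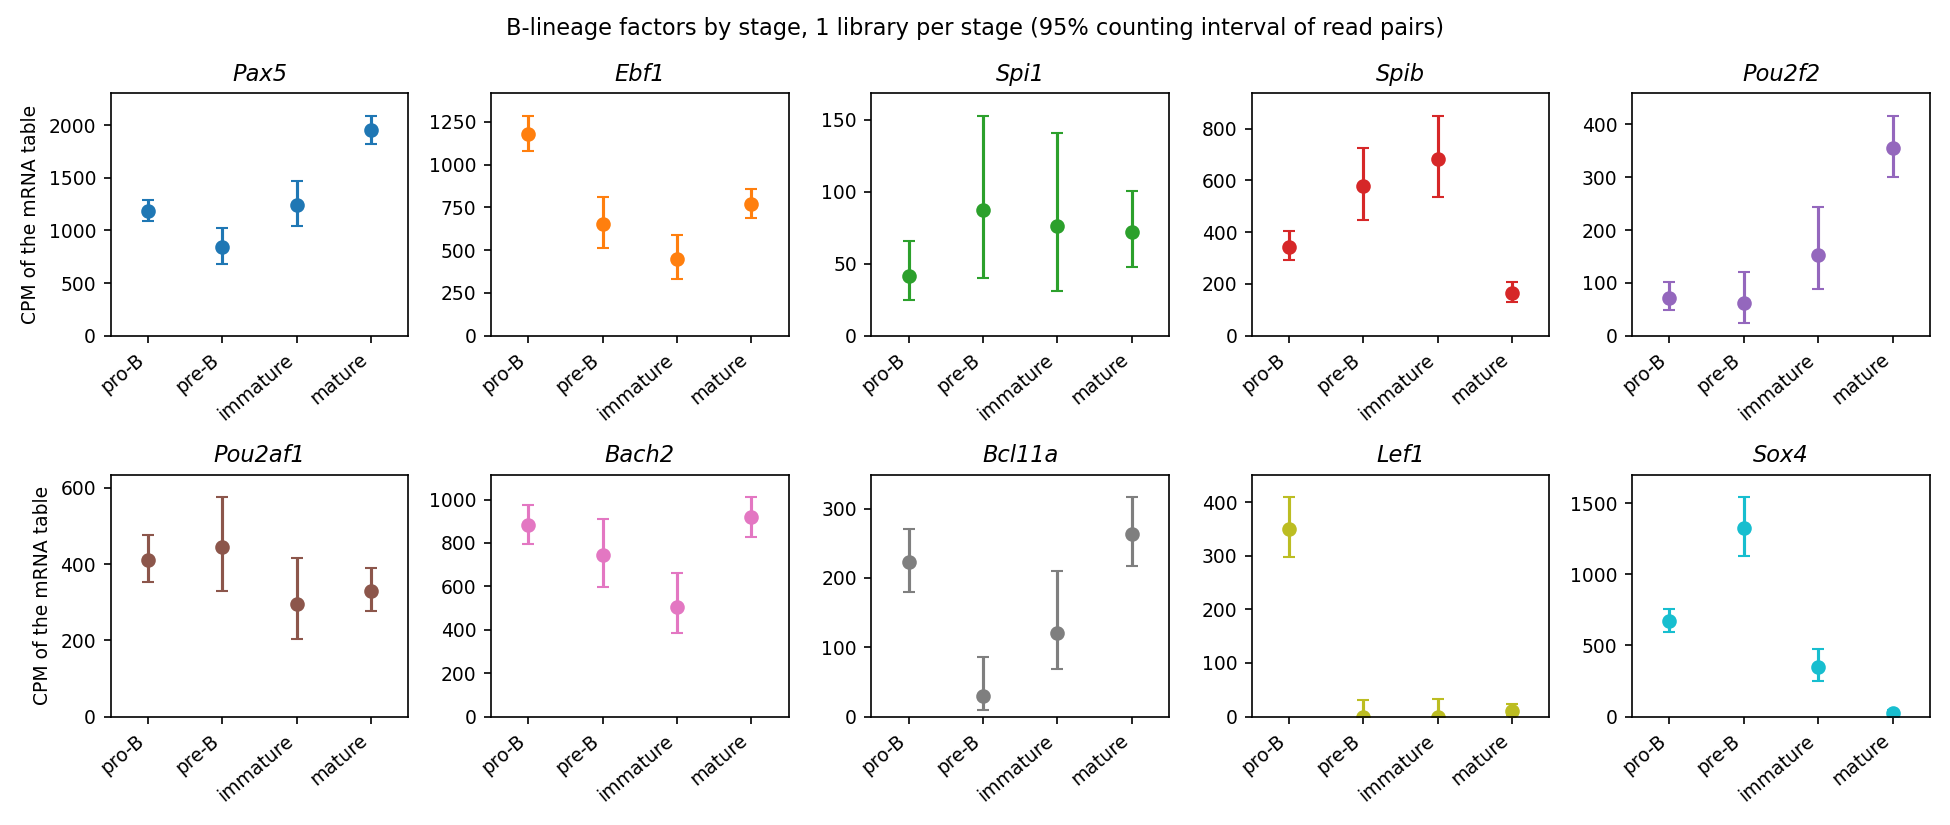
Level of each of the 10 factors (CPM of the mRNA table, linear axis from 0, scale set per gene) in pro-B, pre-B, immature and mature B cells. Points are the single library of a stage and bars the 95% counting interval of read pairs. Pou2f2 was highest in mature cells at 356 CPM, Lef1 was at 350 CPM in pro-B cells and at 0 counts in the middle stages, and Sox4 ran from 1324 CPM in pre-B to 24.7 CPM in mature cells.

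Pax5, the commitment factor, had 1187 CPM in pro-B (95% interval 1115 to 1261), 844 in pre-B (733 to 970), 1242 in immature (1102 to 1399) and 1958 in mature cells (1865 to 2054). It was lowest in pre-B and highest in mature cells, and no comparison reached 2-fold in CPM. From pro-B to mature cells the CPM ratio was 1.65 (1.53 to 1.78). Ebf1, which acts with it, had 1180 CPM in pro-B, 652 in pre-B, 446 in immature and 771 in mature cells. The CPM of Ebf1 was thus lowest in immature cells, with a ratio of 0.552 (0.465 to 0.656) for pre-B against pro-B and of 0.653 (0.592 to 0.722) for mature against pro-B, neither of them 2-fold. By FPKM, pre-B cells were 3.87-fold below pro-B cells for Pax5 and 6.46-fold for Ebf1. Mature cells had 3.67 and 4.88 times the FPKM of immature cells. The whole table shifted in FPKM in these comparisons, as given below.

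Within a library, the ratio of Ebf1 to Pax5 counts needs no scaling between libraries. It was 0.994 in pro-B (0.911 to 1.09), 0.773 in pre-B (0.624 to 0.957), 0.359 in immature (0.283 to 0.454) and 0.394 in mature cells (0.359 to 0.431). The intervals of pro-B cells and of the immature and mature libraries did not overlap, while the last pair overlapped. With read pairs the pre-B interval, 0.567 to 1.05, included 1. Per length, the ratio of their FPKM was 0.745, 0.446, 0.304 and 0.403 in the same order, so that Pax5 was the higher of the pair in every library.

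Spi1 was the factor with the fewest counts in pro-B cells, 36, followed by 21 in pre-B, 17 in immature and 61 in mature B cells. These counts correspond to 41.5, 87.4, 76.1 and 71.8 CPM. The pre-B level was 2.11-fold that of pro-B cells (1.17 to 3.71), which passed the 2-fold rule, but the interval of read pairs, 0.828 to 4.59, included 1, and FPKM gave a value 1.81-fold lower. The other 3 comparisons of Spi1 stayed under 2-fold in CPM. Myeloid cells also express Spi1, and the sum of the 8 myeloid markers was 1060, 1120, 926 and 843 CPM from pro-B to mature, with Csf1r and Cd14 at 0 counts, and the part of such cells was not tested.

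Spib had 298 counts in pro-B, 139 in pre-B, 152 in immature and 140 in mature cells, or 344, 577, 682 and 165 CPM. It was highest in immature and lowest in mature cells, a 4.13-fold fall (ratio 0.242, 0.191 to 0.307). FPKM turned this direction, at 21.98 in immature and 22.94 in mature cells. Against pro-B cells, mature cells were 2.08-fold lower in CPM (ratio 0.481, 0.390 to 0.589), and 1.60-fold lower in FPKM. Plasmacytoid dendritic cells also express Spib. Their marker sum was highest in the pro-B library, where Spib was at its highest in FPKM (36.7) but not in CPM, and their part in its levels was not tested.

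The balance of the ETS pair was read within each library. Spib had 8.28 counts per Spi1 count in pro-B (5.85 to 12.0), 6.60 in pre-B (4.17 to 11.0), 8.97 in immature (5.40 to 15.8) and 2.30 in mature cells (1.69 to 3.15). The mature interval lay below the other 3, which overlapped each other. With read pairs the mature interval, 1.501 to 3.71, overlapped that of pre-B cells, 3.54 to 15.02. The FPKM ratio was 11.3, 9.07, 8.39 and 4.05 in that order, so Spib was above Spi1 per length in each library and least so in mature cells.

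miR-155-5p, a miRNA known to act on Spi1, was read in the small RNA libraries of the same pools. Its mature sequence in RefSeq (GRCm38.p6, chr16:84714143-84714165, plus strand) is shown because its seed, bases 2 to 8 in capitals, is the part that pairs with targets.
miR-155-5p: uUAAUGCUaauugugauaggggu
The deposited TPM was 84.3 in pro-B (85 tags, 67.3 to 104), 74.0 in pre-B (133 tags, 62.0 to 87.8), 101 in immature (263 tags, 89.0 to 114) and 122 in mature cells (170 tags, 105 to 142). The highest value stood in mature and the lowest in pre-B cells, whose intervals did not overlap, while neighbouring intervals overlapped for pro-B and pre-B and for immature and mature cells. The intervals of Spi1 in pre-B, immature and mature cells overlapped throughout, so no order of Spi1 is set beside that of miR-155-5p.

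Pou2f2 had 71.4 CPM in pro-B (62 counts), 61.7 in pre-B (14.8 counts), 152 in immature (34 counts) and 356 in mature cells (302 counts). It was called higher at both later steps, 2.47-fold for immature against pre-B (1.29 to 4.81) and 2.34-fold for mature against immature (1.64 to 3.44). Mature cells exceeded pro-B cells 4.98-fold (3.78 to 6.65), a larger ratio than that of 97.3% of the genes tested. This was the sole factor at least 2-fold higher in mature than in pro-B cells, and it was called under FPKM, TMM and size factors too.

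Its coactivator Pou2af1 had 410 CPM in pro-B, 445 in pre-B, 295 in immature and 330 in mature cells. No comparison reached 2-fold, and the CPM ratio for mature against pro-B was 0.805 (0.685 to 0.943, with read pairs 0.639 to 1.01). Pou2f2 counts per Pou2af1 count were therefore 0.174 (0.131 to 0.229), 0.139 (0.0758 to 0.242), 0.515 (0.330 to 0.791) and 1.08 (0.914 to 1.27) from pro-B to mature. The first pair of intervals overlapped, and the immature and mature intervals lay above them and apart from each other. With read pairs the immature interval, 0.269 to 0.952, overlapped those of pre-B (0.0507 to 0.292) and mature cells (0.851 to 1.37).

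Bach2, which restrains plasma cell genes, had 883 CPM in pro-B, 743 in pre-B, 507 in immature and 918 in mature cells. It was lowest in immature cells, with a ratio of 0.681 to pre-B (0.531 to 0.864), and mature and pro-B cells had a ratio of 1.04 (0.938 to 1.15). FPKM gave the other direction for immature against pre-B, 9.91 rising to 25.7. Bach2 had 9.71 counts per unit of FPKM in pro-B, 18.02 in pre-B, 4.41 in immature and 8.69 in mature cells, so the 2 measures used other effective transcript lengths in the middle libraries. Relative to the median gene and to pro-B cells, that length was 1.76 in pre-B and 0.470 in immature cells, against a range from the 5th to the 95th percentile of genes of 0.480 to 1.72 and 0.448 to 1.66.

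Bcl11a had 193 counts in pro-B, 7 in pre-B, 27 in immature and 224 in mature B cells. In CPM it was 222 (192 to 256), 29.1 (11.7 to 60.0), 121 (79.6 to 176) and 264 (230 to 301). With read pairs the pre-B (9.07 to 85.3) and immature intervals (68.5 to 210) overlapped, while the interval of their ratio (1.18 to 15.7) stayed above 1. The pre-B level was 7.63-fold lower than that of pro-B cells (ratio 0.131, 0.0520 to 0.275), the immature level 4.15-fold higher than that of pre-B cells (1.76 to 11.3) and the mature level 2.18-fold higher than that of immature cells (1.46 to 3.39). Bcl11a was thus called in all 3 steps, yet mature and pro-B cells, libraries of like mRNA totals, had a ratio of 1.19 (0.974 to 1.45). FPKM had the same directions, with 10.1, 0.20, 0.95 and 16.8, beside the shift of the whole table given below. Its folds were larger, 50.35-fold lower for pre-B against pro-B and 17.6-fold higher for mature against immature. Bcl11a had 19.2, 35, 28.4 and 13.4 counts per unit of FPKM from pro-B to mature, so its effective length differed between libraries. Plasmacytoid dendritic cells also express Bcl11a, and their marker sum was 2790, 674, 1102 and 910 CPM from pro-B to mature. Of that sum Irf8, also a partner factor of early B cells, took 902, 246, 591 and 631 CPM, and Siglech 121, 0, 17.9 and 0 CPM. The part of these cells in the level of Bcl11a was not tested.

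Lef1 had 303 counts in pro-B cells, none at the middle stages and 8 in mature cells, or 350 CPM (311 to 391), 0, 0 and 9.42 CPM (4.07 to 18.6). Nearly all of its RNA was thus in the pro-B library. With the pre-B count set to the floor of 3, the pre-B level was 28.0-fold lower than the pro-B level. The interval of the ratio reached up to 0.0443, and with read pairs up to 0.0888, so a smaller fold is possible. Mature cells were 37.1-fold lower than pro-B cells (ratio 0.0269, 0.0115 to 0.0538). In the middle libraries, 3 counts would have been 12.5 and 13.4 CPM, so a level as low as that of mature cells lay under the floor there, and no fold is given between them. The NK and T-cell marker sums were highest in the same library, and both cell types express Lef1. All 7 NK markers and 5 of the 7 T-cell markers had counts there, Cd4 with 45, Lck with 57 and Thy1 with 28, while Cd3d and Cd3e were at 0 and Cd3g at 2. The part of these cells in the level of Lef1 was not tested.

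Sox4 had 671 CPM in pro-B (617 to 727), 1324 in pre-B (1182 to 1478), 349 in immature (276 to 436) and 24.7 in mature cells (15.3 to 37.8). No interval overlapped another, and the level fell 3.79-fold from pre-B to immature (ratio 0.264, 0.203 to 0.339) and 14.1-fold from immature to mature (ratio 0.0708, 0.0415 to 0.116). Mature cells were 27.1-fold below pro-B cells (ratio 0.0369, 0.0226 to 0.0569), above only 0.467% of the genes tested. The pre-B level was 1.97-fold that of pro-B cells (1.72 to 2.27), just under the 2-fold rule, and it passed the rule with TMM and with size factors, whereas FPKM fell from 22.3 to 11.5. Sox4 counts per FPKM ranged only from 25.2 to 27.6, so a differing effective length was not seen for this gene.

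Counted together, pre-B against pro-B cells had 1 of 10 factors at least 2-fold higher (Spi1) and 2 lower (Bcl11a and Lef1). Over all genes tested in this comparison 14.8% were called higher and 29.2% lower. For immature against pre-B, 2 of 9 tested were higher (Pou2f2 and Bcl11a) and 1 lower (Sox4), beside 18.9% and 20.2% of genes. For mature against immature, 2 of 9 were higher (Pou2f2 and Bcl11a) and 2 lower (Spib and Sox4), beside 24.2% and 18.1%. For mature against pro-B, 1 of 10 was higher (Pou2f2) and 3 were lower (Spib, Lef1 and Sox4), beside 13.2% and 24.2%. With 9 or 10 genes, each of these counts was near the share of all genes, and nothing is read from them about the group. Lef1 had under 10 counts in each library of the middle 2 comparisons and was not tested there.

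**Figure D2:**
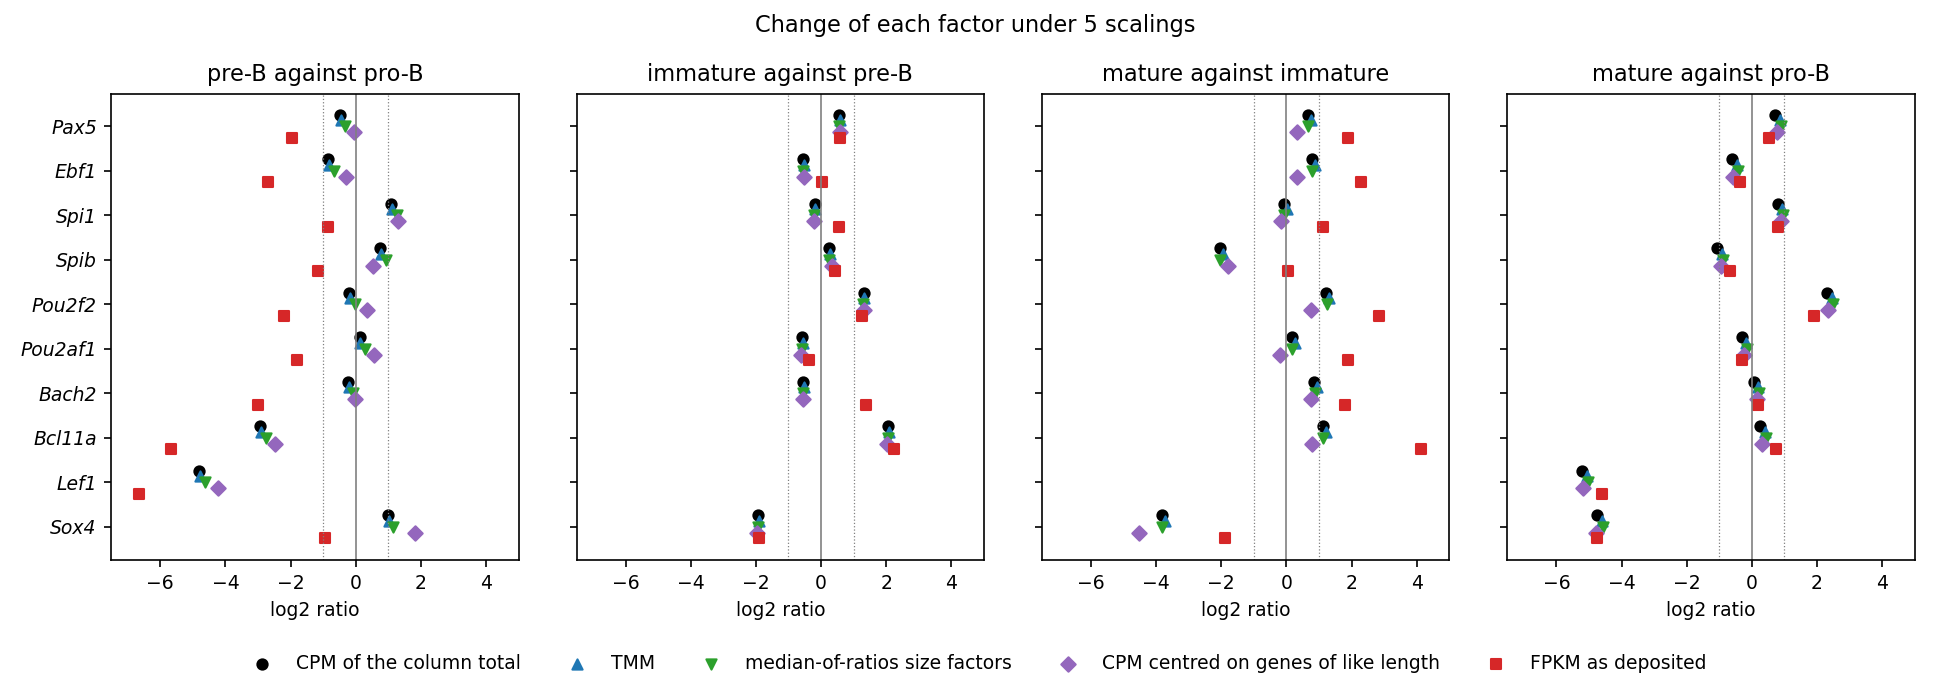
Log2 ratio of each factor in the 4 comparisons under 5 scalings (CPM of the column total, TMM, median-of-ratios size factors, CPM centred on genes of like length and FPKM as deposited), with dotted lines at 2-fold. FPKM lay far to the left of the others for pre-B against pro-B and to the right for mature against immature, while in mature against pro-B the 5 values of a factor lay close together.

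The scale decided much in the comparisons that crossed the gap in mRNA totals. The log2 ratio of the mRNA totals was -1.85 for pre-B against pro-B and 1.93 for mature against immature. Over genes with at least 10 counts in every library, counts per unit of FPKM differed there by a median log2 of 0.08 and 0.01. FPKM thus did not follow the mRNA totals. The median log2 ratio over genes with at least 10 counts in both libraries was 0.01 in CPM and -1.82 in FPKM for pre-B against pro-B, and -0.08 and 1.71 for mature against immature. For the pairs of like mRNA totals it was 0.01 and 0.05 for immature against pre-B, and -0.09 and -0.07 for mature against pro-B. By FPKM, 8 of 10 factors were at least 2-fold lower at the pre-B stage than before it, where 81.6% of all genes tested were, and 7 of 9 were higher in mature than in immature cells, where 77.5% of all genes were. Relative to that shift of the whole table, Spi1, Spib and Sox4 kept their place near the top in pre-B against pro-B, above 83.6%, 78.9% and 82.2% of the genes tested, and Spib and Sox4 were again near the bottom in mature against immature, above 10.1% and 1.32%.

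A second dependence was on transcript length, read as counts per unit of FPKM. Genes with a mean CPM of at least 50 were split into 5 bins of equal size. In pre-B against pro-B cells the median log2 CPM ratio was 0.22 in the bin of the shortest genes and -0.82 in that of the longest, and in mature against immature cells it was -0.24 and 0.72. In the pairs of like mRNA totals it stayed between -0.09 and 0.05 for immature against pre-B and between -0.11 and 0.01 for mature against pro-B. Spib lay in the bin of the shortest genes, Spi1 and Bach2 in the next, and Sox4 in the longest. The bin of Bach2 is uncertain, since its counts per unit of FPKM ran from 4.41 in immature to 18.02 in pre-B cells.

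**Figure D3:**
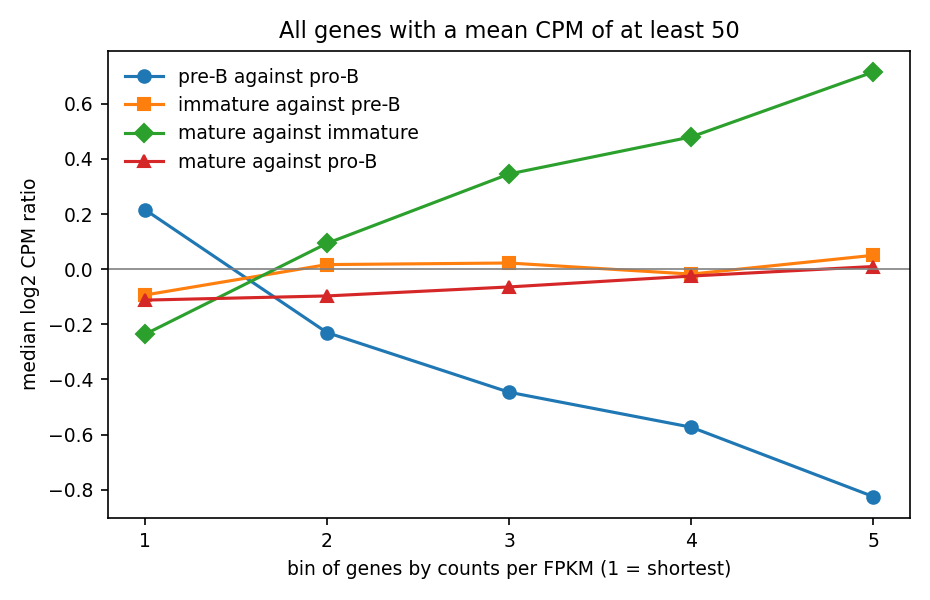
Median log2 CPM ratio of all genes with a mean CPM of at least 50, by bin of counts per FPKM (1 = shortest), for the 4 comparisons. The line of pre-B against pro-B fell from 0.22 to -0.82, that of mature against immature rose from -0.24 to 0.72, and the other 2 lines stayed near 0.

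Set against genes of like length, the log2 ratio of Sox4 for pre-B against pro-B was 1.81 in place of 0.98, that of Spi1 1.31 in place of 1.08 and that of Pax5 -0.05 in place of -0.49. For mature against immature, Pou2f2 and Bcl11a then fell short of 2-fold, at 0.74 and 0.78, and Spib and Sox4 stayed lower at -1.81 and -4.53. Bcl11a and Lef1 stayed lower for pre-B against pro-B, at -2.49 and -4.23. For mature against pro-B, Spib came to -0.94, short of 2-fold, while Pou2f2, Lef1 and Sox4 stood at 2.34, -5.19 and -4.77.

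The makeup of the 10 factors within a library, which needs no scaling between libraries, followed the same lines. Sox4 made up 12.5% of the counts of the 10 in pro-B (11.6% to 13.5%), 27.8% in pre-B (25.2% to 30.5%), 9.02% in immature (7.19% to 11.1%) and 0.508% in mature cells (0.315% to 0.776%). Pax5 made up 22.1%, 17.7%, 32.1% and 40.2% in the same order and Ebf1 22.02%, 13.7%, 11.5% and 15.8%. The count shares of Pax5 and Ebf1 were thus alike in pro-B cells and apart in mature cells. Per length they were apart in both, with 20.6% and 15.3% of the summed FPKM in pro-B and 30.5% and 12.3% in mature cells. Spib had its largest share, 17.6% (15.1% to 20.3%), in immature B cells and its smallest, 3.40% (2.86% to 3.98%), in mature cells. Pou2f2 rose from 1.33% (1.02% to 1.71%) in pro-B cells to 7.31% (6.53% to 8.14%) in mature cells.

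**Figure D4:**
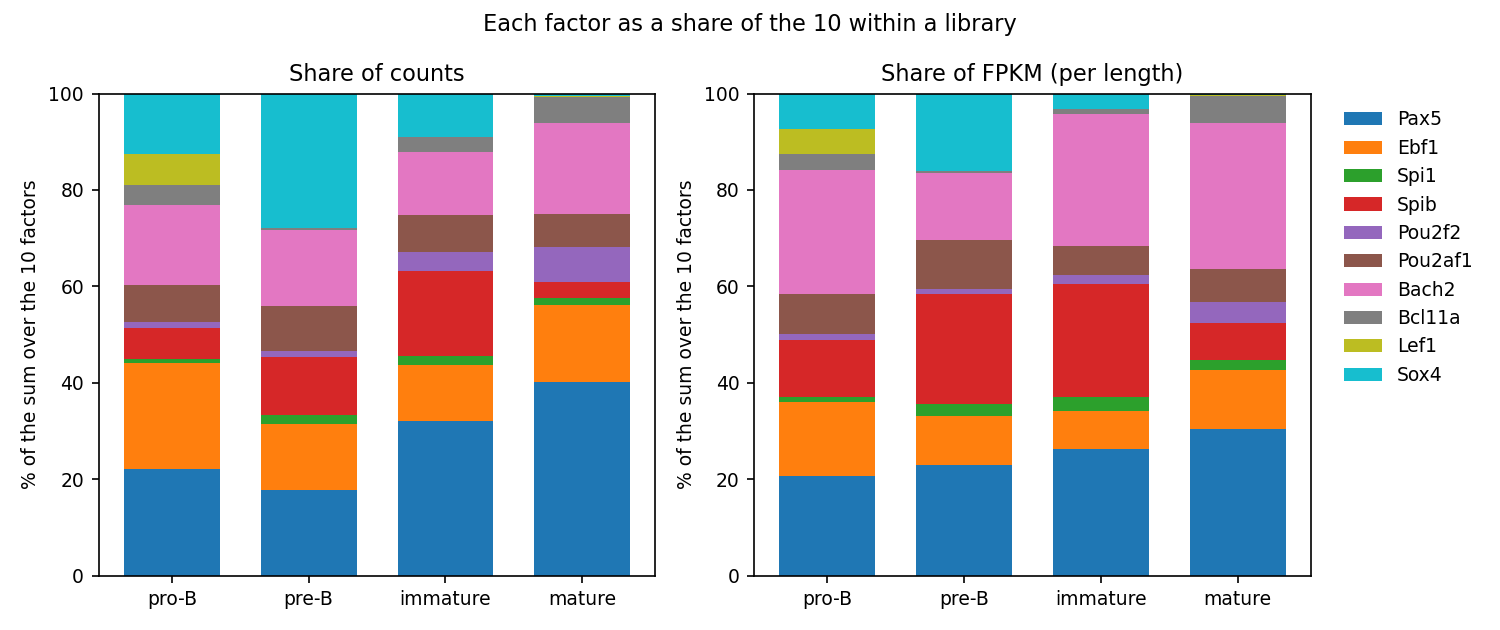
Share of each factor in the summed counts (left) and summed FPKM (right) of the 10 factors, in % within each library. Sox4 took 27.8% of the counts in pre-B and 0.508% in mature cells, and Pax5 grew to 40.2% of the counts and 30.5% of the FPKM in mature cells.

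Between genes, levels were compared per length, by FPKM. Bach2 was the highest of the 10 in pro-B (78.9) and immature cells (25.7), and Pax5 in pre-B (16.3) and mature cells (90.6). In pre-B cells Pax5 and Spib, at 16.33 and 16.32, could not be ordered, and the same held in immature cells for Bach2 and Pax5 (25.7 and 24.7) and in mature cells for Pax5 and Bach2 (90.6 and 89.7). Spi1 was the lowest in pro-B cells (3.26) and Lef1 in the other libraries. Ebf1 ranked 3 of the 10 in pro-B and mature cells, at 47.1 and 36.5, and 6 in pre-B cells at 7.29.

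The profile of a gene, its CPM in each library as a share of the sum over the 4, was compared with those of the 6941 other genes with at least 50 counts. The distance is the part of the profile, in %, that would have to move to make the profiles alike. Among the 10 factors the closest pair was Bach2 and Pou2af1 at 9.05%, and Ebf1 was nearest to Bach2 at 9.75%. Lef1 was farthest from all, 58.7% from its nearest, Ebf1. Over the whole table the nearest genes to Lef1 were Enpep, Uhrf1 and Lgr5 (0.192%, 0.384% and 0.519%), all with no count in the middle libraries. Nearest to Sox4 were Cdc42ep3, Gm4737 and H3c3 (3.28%, 3.77% and 4.12%), and to Pou2f2 Rubcnl, Atp6v0a1 and Myo1e (3.05%, 3.47% and 3.47%). Only 5 genes lay within 5% of Sox4 and 5 of Pou2f2, whereas 148 lay within 5% of Bach2, 143 of Pou2af1 and 131 of Ebf1.

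The nearest genes to the other factors were Pced1a, Psd4 and Zfp276 for Pax5, Fbxo7, Ppp3cb and Clint1 for Ebf1, Tbc1d1, Lrrc8d and Rnf123 for Spi1, and Psmb4, Fga and Gm42742 for Spib. For Pou2af1 they were Chmp3, Dcaf10 and Sec11a, for Bach2 Naa40, Tapbp and Rreb1, and for Bcl11a Smim7, Smad4 and Fem1b. All of these were within 2.18% of their factor. The likeness rests on 4 libraries that share trends of mRNA total and of length.

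Promoter windows of the factors were searched for letters that several of these proteins bind, and for the E-box. The E-box is a site of E proteins, which are not among the 10 factors. The windows, 250 bases before to 50 after a start in RefSeq (GRCm38.p6), numbered 13 for 9 of the factors, since Lef1 and Ebf1 have several, and Spi1 had none in the set. Of 5 sets of letters searched on both strands, CAGCTG (E-box) was found in 2 of the 13 windows, 1 of Lef1 and 1 of Sox4, and in 16.3% of 32851 windows of all genes. ATTTGCAT (octamer), the EBF palindrome, GAGGAAGT (PU box) and ATCAAAG (LEF/TCF) were found in none of the 13, and in 1.74%, 0.904%, 3.20% and 3.73% of all windows. Lef1 and Sox4 are the factors with the largest falls from pro-B to mature cells, but 2 of 13 windows is near the share of all windows. A link between the E-box and these levels was not tested. The Lef1 window (chr3:131112541-131112840), 1 of several, lies inside the gene, which begins at 131110297, while the Sox4 window holds the start of the gene. The 30 bases around each E-box are shown with its letters in capitals, 205 bases before the start used for the window for Lef1 and 211 for Sox4.
Lef1 (chr3:131112574-131112603, plus strand): actctgtctcagCAGCTGaggaaacctcac
Sox4 (chr13:28953893-28953922, minus strand): cagcagaaatctCAGCTGtacttctagccc
A match of letters is a description of the window and no evidence of binding.

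Circular RNAs, read from back-spliced junctions, gave another readout of the same loci. Of 1005 circRNAs, 18 came from 5 of the factors: 8 from Ebf1, 6 from Bach2, 2 from Pou2af1 and 1 each from Pax5 and Spib. All 18 lay inside their gene in GRCm38, as did 96.6% of the 963 circRNAs whose gene could be matched, and positions are given in that build. Their reads numbered 20 of 1370 back-spliced reads in pro-B (1.46%, exact interval 0.894% to 2.25%), 47 of 1719 in pre-B (2.73%, 2.02% to 3.62%), 55 of 1751 in immature (3.14%, 2.37% to 4.07%) and 12 of 1531 in mature cells (0.784%, 0.406% to 1.37%). The share was higher in immature than in pro-B or mature cells by these intervals, and with read pairs the intervals of pro-B (0.702% to 2.67%) and immature cells (2.04% to 4.46%) overlapped.

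**Figure D5:**
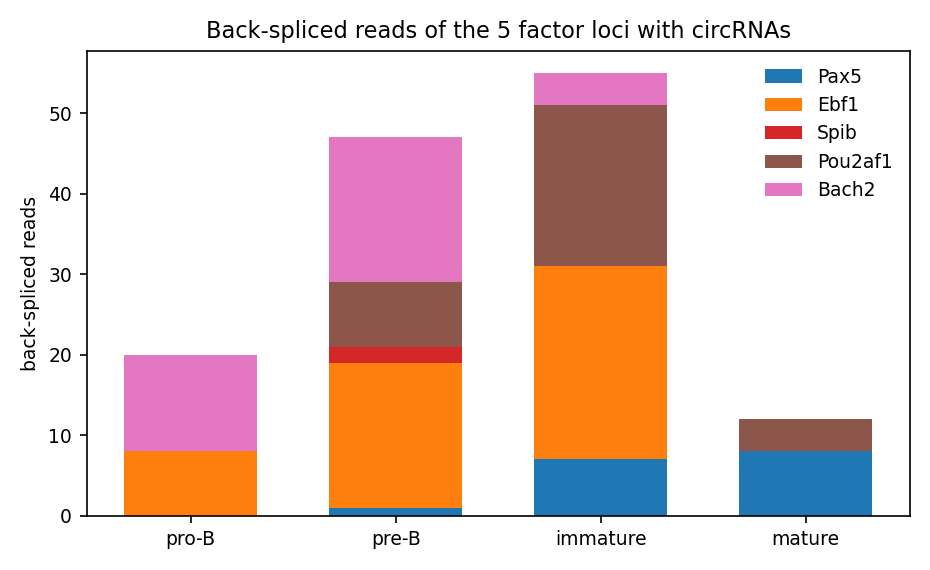
Back-spliced reads (linear axis from 0) of the 5 factor loci with circRNAs, stacked by gene, in each of the 4 libraries. Ebf1 and Bach2 gave all 20 reads in pro-B cells, and Pax5 and Pou2af1 gave all 12 in mature cells.

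Pou2af1 and Pax5 had the circRNAs of annotated exons. That of Pou2af1 (chr9:51232232-51233243, plus strand, spliced length 440 bases) had 0 reads in pro-B, 4 in pre-B, 20 in immature and 4 in mature B cells. It peaked in immature cells, where the mRNA of Pou2af1 was at its lowest CPM of the 4. That of Pax5 (chr4:44679440-44697687, minus strand, 683 bases) had 0, 1, 7 and 8 reads, and none in pro-B cells although Pax5 had 1030 mRNA counts there. For Pou2af1 the back-spliced reads of both circRNAs came to 30.3 per 100 mRNA counts in immature and to 1.43 in mature cells. This ratio crosses the gap in mRNA totals (223495 against 849350 counts), while the back-spliced totals were 1751 and 1531, and the part of the mRNA totals in it was not tested.

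The 14 circRNAs of Ebf1 and Bach2 were intronic (6) or antisense (8), and none came from annotated exons. Ebf1 gave 8 reads in pro-B, 18 in pre-B, 24 in immature and 0 in mature cells, and Bach2 gave 12, 18, 4 and 0. Mature cells thus had no back-spliced read from either locus, with 655 and 779 mRNA counts. A count of 0 still allows for several reads, more so if both mates of a pair are counted. Of the 18 circRNAs 14 (77.8%) had reads in 1 library only, near the 804 of all 1005, with 2 to 8 reads each, and 9 of the 18 were antisense beside 32.8% of all circRNAs. Of the 6 Bach2 circRNAs, 1 (chr4:32564724-32570992, plus strand) overlapped the antisense gene Bach2os in position. It was intronic and on the strand of Bach2, opposite to Bach2os. None of the antisense circRNAs of Bach2 overlapped Bach2os.

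The lncRNA table listed 20 non-coding transcripts under the symbol of a factor or its antisense gene, of which 10 had at least 10 counts in some library. Bach2os, transcribed from the other strand within Bach2 (chr4:32559680-32571662), had 207 counts in pro-B, 568 in pre-B, 302 in immature and 205 in mature cells over 3 transcripts. Per 100 Bach2 mRNA counts, these came to 27.0, 318, 267 and 26.3. Bach2os thus exceeded Bach2 in both middle libraries and stood below it in the other pair. The same libraries had the larger lncRNA totals, 3469757 and 3227162 counts against 2795519 and 2765507, and the smaller mRNA totals, and the part of this in the ratio was not tested. In FPKM, which does not rest on the ratio of tables, the 3 transcripts summed to 33.5, 86.4, 53.1 and 36.3.

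Other non-coding transcripts carried the symbol of the coding gene. Those listed as Ebf1 had 352, 9.17, 19.9 and 318 counts from pro-B to mature cells, which is 34.3, 5.86, 19.9 and 48.6 per 100 Ebf1 mRNA counts. The authors' counting could split reads between overlapping transcripts of 1 gene, so these values are uncertain. Those listed as Bach2 had 58.0, 5.06, 21.7 and 72.0 counts, and that of Bcl11a 5.15, 0, 0 and 16.7. Those listed as Pax5 had 34.0, 0, 14.2 and 0 counts, so the patterns differed between genes. Lef1os1, antisense to Lef1, had 62.3 counts in pro-B and 32.2 in pre-B cells and none in immature or mature cells. In pre-B cells it was therefore present where Lef1 mRNA had no count.

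Genes downstream of the factors were read from fixed lists. The shares of all genes called in each comparison are those given above for the factors. Of 16 B-lineage targets of Pax5, Ebf1 and Pou2af1, 5 were at least 2-fold higher and 5 lower at the step from pro-B to pre-B, with a median log2 ratio of -0.21 beside -0.39 over all genes tested. Cd79b, a chain of the B-cell receptor, went from 780 to 2073 CPM and Fcrla from 265 to 924 CPM. Rag1, a recombinase gene, went from 918 to 372 CPM and the adaptor gene Blnk from 457 to 171 CPM. Rag2, the other recombinase gene, went the other way, from 109 to 316 CPM, while its FPKM fell from 7.41 to 4.21. By FPKM none was higher and 11 were lower, beside the shift of the whole table.

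For immature against pre-B cells 2 of 14 tested targets were higher and 4 lower. Cd79a rose from 249 to 680 CPM and the inhibitory receptor gene Cd22 from 41.6 to 380 CPM, while Fcrla fell from 924 to 362 CPM and Rag2 from 316 to 94.0 CPM. For mature against immature cells 3 of 13 were higher, Cd22 reaching 1063 CPM and the complement receptor gene Cr2 rising from 80.5 to 307 CPM, and 6 were lower. Cd79b fell there to 925 CPM, and Ly6d from 1307 to 260 CPM. By FPKM 7 of the 13 were higher and 3 lower, and Cd79b had the other direction, 96.0 and 124. For mature against pro-B cells 3 of 16 were higher and 7 lower, with a median of -0.43 beside -0.19. Cd79a rose from 287 to 590 CPM, Rag1 fell to 1.18 CPM and Cplx2 from 729 to 16.5 CPM.

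Of 10 genes of other lineages that Pax5 is known to repress, 8 could be tested in mature against pro-B cells, and 6 were lower and 2 higher, with a median of -1.78 beside -0.19 (by FPKM 4 lower and 2 higher). Notch1, which directs T-cell fate, fell from 615 to 122 CPM and Itgam, a myeloid integrin, from 124 to 53.0 CPM. Lmo2 rose from 62.2 to 256 CPM and Grap2 from 26.5 to 280 CPM. In pre-B against pro-B 3 of 8 tested were lower and none higher, in immature against pre-B 1 of 4 was lower and 2 higher, and in mature against immature 2 of 5 were higher and none lower. By FPKM 7 of 8 were lower in the first of these and all 5 higher in the last. Markers of other cells were also lower in mature than in pro-B cells, the NK sum with 11.8 against 303 CPM, the T-cell sum with 38.9 against 158 CPM and the plasmacytoid dendritic sum with 910 against 2790 CPM, and their part in the list was not tested. Csf1r had no count in any library.

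Of 15 partner factors of early B cells 4 were lower and 1 higher in mature than in pro-B cells, with a median of -0.52 beside -0.19. Myb, a progenitor factor, went from 1370 CPM in pro-B to 1166, 309 and 24.7 CPM, with its large falls at the same steps as Sox4. The E protein gene Tcf3 fell from 629 to 235 CPM and Zeb2 from 577 to 151 CPM, and Ikzf3, an Ikaros family gene, rose from 269 to 942 CPM. For pre-B against pro-B 2 of 15 partners were lower and none higher, for immature against pre-B 3 of 14 were lower and 1 higher, and for mature against immature 4 of 14 were higher and 1 lower. By FPKM 14 of 15 were lower in pre-B against pro-B and 11 of 14 higher in mature against immature, beside the shifts of the whole table.

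Of 16 relatives of the factors only 7 or fewer could be tested in the first 3 comparisons, and 8 in mature against pro-B, where 4 were lower (beside 24.2% of all genes) and none higher. Ebf2, Ebf3, Ebf4, Pou2f3, Bcl11b and Sox11 had no count in any library, so that Ebf1 was the one Ebf gene detected. Sox12, a SoxC relative of Sox4, had 0 to 10 counts. In pre-B against pro-B cells 5 of 7 relatives were lower, beside 29.2% of all genes. Among them were Bach1 from 219 to 45.8 CPM, Pou2f1 from 200 to 91.6 CPM and Fli1 from 151 to 70.3 CPM, and Ets2 was higher, 362 against 95.6 CPM. In mature against immature cells 4 of 6 were higher, beside 24.2% of all genes, and none lower. By FPKM 6 of 7 were lower in the former and all 6 higher in the latter. Bach1, Pou2f1 and Fli1 were thus low in the same libraries as Bcl11a, those with the smaller mRNA totals. The part of the mRNA totals and of transcript length in this was not tested.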

How the data were processed

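Wild type bone marrow B cells of 4 stages were measured, each as 1 rRNA-depleted RNA and 1 small RNA library of cells pooled from 3 mice. According to the study's methods the authors cleaned reads with fastp 0.18.0, removed rRNA with Bowtie2 2.2.8, mapped with HISAT2 2.1.0 and assembled with StringTie 1.3.4. The submitters' processing notes list mm9 and Bowtie 0.12.2 without a role, whereas the circRNA positions lay inside GRCm38 genes. For mRNAs and lncRNAs the authors deposited estimated counts, not all whole, beside FPKM values that the authors scaled by transcript length and library. The circRNA table holds deposited counts of back-spliced reads, and RPM values by the authors were not used. The miRNA table holds tag counts and TPM as deposited, with TPM relative to clean tags.

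Counts were divided by the column total (CPM), with exact 95% Poisson intervals of rounded counts, exact binomial (Clopper-Pearson) intervals for shares and conditional exact ones for ratios. A library under 3 counts was set to 3, and genes needed 10 counts in either library. Since each stage has 1 library, no test was run. Scripts were tested on simulated data with known changes. Alternatives were FPKM, edgeR 4.0.16 TMM, DESeq2 1.42.0 size factors, a total without the 10 largest genes, a floor of 1 count, no filter and a 2-fold rule that also needs the interval to exclude 1. Intervals of read pairs and centring on genes of like length were added after the values were seen. Calculations used Python 3.11.15 with scipy 1.17.1, and R 4.3.3. Genes were matched to RefSeq by symbol. The members and gene lists were chosen with earlier results of these data known. Named were the 10 members, from each list at most 4 called genes per comparison by counts, marker genes with their lists, and the 3 genes nearest in profile to each member. The relatives without a count, Csf1r and, in pre-B against pro-B, Rag2 were named after their values were seen. Protein sequences were not analysed here.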

Additional observations from a re-analysis of the deposited data

How the results depend on the processing

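With 1 library per stage no replicate could be left out, and no paired analysis was possible because each stage has a single replicate number. Of the 8 counts of called factors, those of immature against pre-B and of mature against pro-B stayed within 1.5 times under every alternative tried. For pre-B against pro-B, the number higher (1) became 0 by FPKM and when the interval of read pairs had to exclude 1, and 2 with TMM, size factors, the total without the 10 largest genes or centring on genes of like length, which added Sox4. The number lower there (2) became 8 by FPKM. For mature against immature, the number higher (2) became 7 by FPKM and 0 with centring on length, and the number lower (2) became 1 by FPKM. Of the 38 log2 ratios of single factors, 9 changed sign by FPKM, 2 with centring on length and 1 with TMM. Of the ratios past 2-fold, 2 did so, both by FPKM, which were Spi1 in pre-B against pro-B (1.08 to -0.86) and Spib in mature against immature (-2.05 to 0.06). Among the others were Sox4 (0.98 to -0.95) and Spib (0.75 to -1.17) in pre-B against pro-B and Bach2 in immature against pre-B (-0.55 to 1.37), all by FPKM. Besides the 2 past 2-fold, 23 left their counting interval by FPKM, as did 7 with centring on length and 3 each with TMM and size factors. A floor of 1 count and the total without the 10 largest genes moved none of them out of it. Spib, at least 2-fold lower in mature than in pro-B cells by CPM, was short of 2-fold by FPKM, TMM, size factors and length centring. The low mRNA totals limit Lef1, Bcl11a and Spi1 in the middle libraries, where they had 0 to 27 counts.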
